A study of Mus musculus with 15 samples.

Results

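The genes described here are 9 transcription factors of hepatocytes, Hnf4a, Foxa1, Foxa2, Foxa3, Onecut1, Onecut2, Cebpa, Nr5a2 and Prox1, chosen by name and followed across 4 tissues of mice. They are 9 of the 15622 genes that passed the filter on dim probes, and all 9 were well above background on every array of the 3 hepatocyte-bearing tissues. The study placed adult hepatocytes under the kidney capsule of mice with injured livers and asked what kind of tissue grew there. The single-colour Agilent arrays fell into 4 groups. Neo-liver (4 arrays) was the ectopic tissue, cut out of the kidney under a microscope 250 to 300 days after transplantation. Host liver (4 arrays) and host kidney (4 arrays) were the injured liver and the kidney of such recipients. Control liver (3 arrays) came from normal, untransplanted mice. Every animal was a female of the FVB/N strain. Recipients were wild type and 7 to 9 weeks old at the start, and were 48 to 55 weeks old when sampled. They received monocrotaline, a plant alkaloid toxic to liver, in 2 intraperitoneal doses of 70 mg/kg given 2 weeks apart, and 2 weeks after the last dose 1000000 hepatocytes. The donors were FVB/N mice, 8 to 20 weeks old, carrying a human α1-antitrypsin (hA1AT) transgene. Control mice were 20 weeks old, so host liver and control liver differed in age, injury and transplantation together, and these cannot be told apart. Host liver and host kidney were not free of the treatment either, since every recipient carried both the injury and the graft.

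These factors work as a network. HNF4A is a nuclear receptor that binds most active genes of the adult hepatocyte, FOXA1, FOXA2 and FOXA3 are forkhead proteins that open closed chromatin at liver enhancers, and ONECUT1 (also called HNF6) and ONECUT2 are cut-homeodomain proteins of hepatocytes and bile duct cells. CEBPA is a leucine zipper protein that drives genes of the urea cycle and of glucose production, NR5A2 is a nuclear receptor of bile acid and cholesterol genes, and PROX1 is a homeodomain protein needed for hepatocyte precursors to migrate and for lymphatic vessels to form. The factors bind the promoters of one another, so that the mature network holds its own level. Several are also made outside hepatocytes: HNF4A in the proximal tubule of the kidney, FOXA1 in the collecting duct, CEBPA in myeloid cells and PROX1 in lymphatic endothelium.

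Because members of such a network are read together, the promoters of the factors were searched for letters bound by the same families and by HNF1, a homeodomain family of liver. RefSeq promoter sequences on GRCm38.p6 held 13 start sites for 8 of the 9 genes, and the 250 bases before each start site were searched on both strands for 7 short runs, chosen with these sequences in view. The runs were TGTTTAC for FOXA, CAAAGTCCA for HNF4A, GGTTAAT for HNF1, TTGCGCAA and its shorter form TTGCGC for C/EBP, ATTGAT for ONECUT and CAAGGTCA for NR5A2. TTGCGC lies within TTGCGCAA, and no other run is contained in another. The 5 promoters that held a run are printed, to show where these letters lie: 4 carry letters of a family among the 9 factors, and the inner start of Hnf4a carries those of HNF1. Each is written 5′ to 3′ along the gene's own strand, with the matching letters in capitals.
Hnf4a outer start, chr2:163506607-163506856, plus strand: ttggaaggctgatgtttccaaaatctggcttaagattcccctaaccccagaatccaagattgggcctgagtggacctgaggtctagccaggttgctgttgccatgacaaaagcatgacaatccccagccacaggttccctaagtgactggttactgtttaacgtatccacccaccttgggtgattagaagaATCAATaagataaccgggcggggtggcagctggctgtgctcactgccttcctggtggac
Hnf4a inner start, chr2:163546905-163547154, plus strand: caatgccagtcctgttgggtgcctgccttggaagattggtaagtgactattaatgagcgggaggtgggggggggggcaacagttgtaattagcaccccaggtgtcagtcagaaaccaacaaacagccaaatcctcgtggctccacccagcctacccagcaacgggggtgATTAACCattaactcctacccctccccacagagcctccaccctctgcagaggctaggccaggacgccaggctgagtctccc
Foxa1, chr12:57546112-57546361, minus strand: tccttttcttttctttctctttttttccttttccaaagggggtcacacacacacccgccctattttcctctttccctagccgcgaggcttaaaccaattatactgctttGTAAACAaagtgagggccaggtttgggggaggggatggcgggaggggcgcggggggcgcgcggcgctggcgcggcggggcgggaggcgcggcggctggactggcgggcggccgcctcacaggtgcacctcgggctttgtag
Foxa2, chr2:148046970-148047219, minus strand: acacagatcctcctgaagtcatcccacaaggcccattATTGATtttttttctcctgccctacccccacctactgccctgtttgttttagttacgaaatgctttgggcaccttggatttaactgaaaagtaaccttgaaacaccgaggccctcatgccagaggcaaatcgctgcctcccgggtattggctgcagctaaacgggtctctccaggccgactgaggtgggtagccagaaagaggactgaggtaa
Cebpa, chr7:35119043-35119292, plus strand: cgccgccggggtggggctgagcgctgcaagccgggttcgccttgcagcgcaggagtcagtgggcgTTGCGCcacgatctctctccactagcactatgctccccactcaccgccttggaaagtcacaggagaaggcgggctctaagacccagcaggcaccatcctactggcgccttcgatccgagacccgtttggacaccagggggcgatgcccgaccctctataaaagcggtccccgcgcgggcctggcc
At Hnf4a the ONECUT letters began at position -59 from the outer start, on the opposite strand, and the HNF1 letters at -81 from the inner start, also on the opposite strand. Foxa1 held the FOXA letters at -141 on the opposite strand, Foxa2 the ONECUT letters at -213 and Cebpa the shorter C/EBP letters at -185. Among all 32851 promoters of that length, 6.72% held ATTGAT, 5.34% TTGCGC, 3.17% TGTTTAC, 1.63% GGTTAAT, 1.33% CAAGGTCA, 0.384% CAAAGTCCA and 0.164% TTGCGCAA. The last 3 were in none of the members' 13. A match is a description of the letters and not a binding site, and these arrays did not measure binding.

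Levels are given as relative log2 signal, the log2 of a probe's processed brightness minus the 75th percentile of that array, so that 1 unit is a doubling and values of different genes are not comparable. A gene was called changed when limma's moderated test, fitted on all 15 arrays, gave an adjusted p (Benjamini-Hochberg, over 15622 genes, two-sided) under 0.05. Differences are written as log2 difference ± standard error, the group named first minus the other. The 75th percentile signal ran from 416 to 676 on neo-liver arrays, 287 to 448 on host liver, 562 to 875 on host kidney and 390 to 424 on control liver, with no saturated spot. All neo-liver and control liver arrays lay on 1 slide, host liver arrays on another 2, and host kidney arrays on 1 slide of their own, so that slide and tissue cannot be told apart in any comparison with host liver or host kidney. Neo-liver and control liver were compared within 1 slide.

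The labels were set against markers. Signals of 25 plasma protein genes summed to between 9920 and 15600 times the 75th percentile signal in neo-liver, 16900 and 26300 in host liver, 176 and 238 in host kidney and 16800 and 17900 in control liver. The 32 kidney epithelium markers summed to 463 to 1290 in neo-liver, 9.8 to 34.2 in host liver, 2380 to 3330 in host kidney and 8.04 to 9.89 in control liver, and in control liver 22 of them were below background on every array. Every neo-liver array thus read far above both livers for kidney markers. A kidney share was taken as the median over 31 of these markers that exceeded control liver at least 8-fold in host kidney. It was 19.6%, 48.5%, 20.6% and 31.9% of the signal of neo-liver arrays 1 to 4, a mean of 30.2% ± 13.5 (SD, n = 4). On host liver arrays it was at most 0.0402%. The markers did not agree, so each share is approximate. Of the 32, 28 were called lower in neo-liver than in host kidney and 4 were not. Their median difference was -1.78, and that of Slc22a19 was -5.45. Dilution by these shares alone lowers a gene that kidney lacks by a mean of 0.54 on the log2 scale (-0.54). In bulk tissue of this kind, fewer hepatocytes and less RNA of a factor per hepatocyte cannot be told apart.

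All 9 factors were measured in neo-liver, and most of them were lower there than in liver. Against control liver, 6 of the 9 factors were lower and 0 higher (limma, with 6 and 0 also at an unadjusted p under 0.05): Onecut1 by 5.96-fold, Cebpa by 3.49-fold, Foxa2 by 2.96-fold, Prox1 by 2.17-fold, Nr5a2 by 1.94-fold and Hnf4a by 1.54-fold. Foxa3, Foxa1 and Onecut2 were not called. Over all genes 50.1% were called in this comparison, 29.7% lower and 20.4% higher, and the median difference was -0.96 over the 9 factors and -0.15 over all genes. Values of 7 of the 9 factors did not overlap between the groups, each of them lower in neo-liver, beside 57.1% of all genes without overlap and 35.2% without overlap and lower. Neo-liver against host liver gave 7 lower and 0 higher (8 and 0 at an unadjusted p under 0.05), with a background of 48.1% called, 31% lower and 17.1% higher, and a median of -1.08 over the factors and -0.21 over all genes. There 5 of the 9 did not overlap, each of them lower in neo-liver, beside 36.3% and 22.6% of all genes. Host liver against control liver gave 1 factor higher, Foxa3, and 0 lower, with 3 lower at an unadjusted p under 0.05, where 24.5% of all genes were called, 13.3% higher and 11.2% lower. The median was -0.04 over the factors and 0.07 over all genes. The 2 neo-liver comparisons share the neo-liver arrays, and those with control liver share its 3 arrays.

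**Figure D1:**
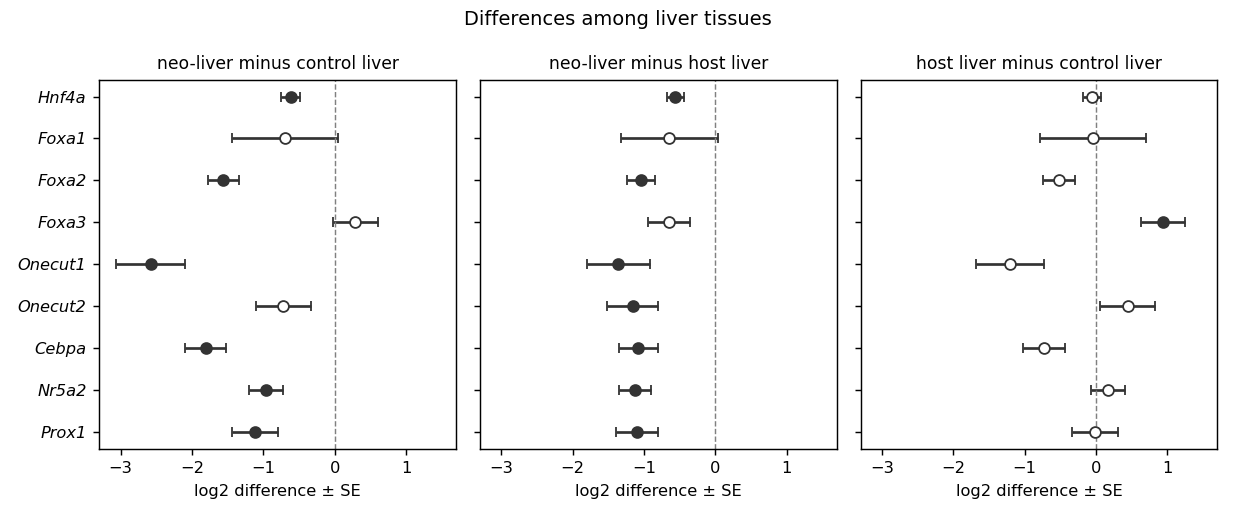
Log2 difference ± standard error (horizontal axis) of each factor (rows) for neo-liver minus control liver, neo-liver minus host liver and host liver minus control liver. Filled points were called at an adjusted p under 0.05 and open points were not: 6, 7 and 1 of the 9 were called, and the dashed line marks no difference.

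Between organs the differences were of another size, with Hnf4a as the exception. In neo-liver 8 of the 9 factors were higher than in host kidney and 0 lower (limma, with the same numbers at an unadjusted p under 0.05), against 52.6% of all genes called, 23.2% higher and 29.4% lower. In host liver 9 of 9 were higher than in host kidney, against 70.7% called and 39.5% called higher. The median difference of the factors was 6.67 for neo-liver and 7.32 for host liver, and that of all genes -0.09 and 0.14. Hnf4a was the factor not called between neo-liver and host kidney. The members were chosen as factors of hepatocytes, which favours this direction, so the shares of all genes are no test of it. Foxa1, Foxa2, Foxa3 and Onecut1 also passed the filter on dim probes only through neo-liver and the livers.

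**Figure D2:**
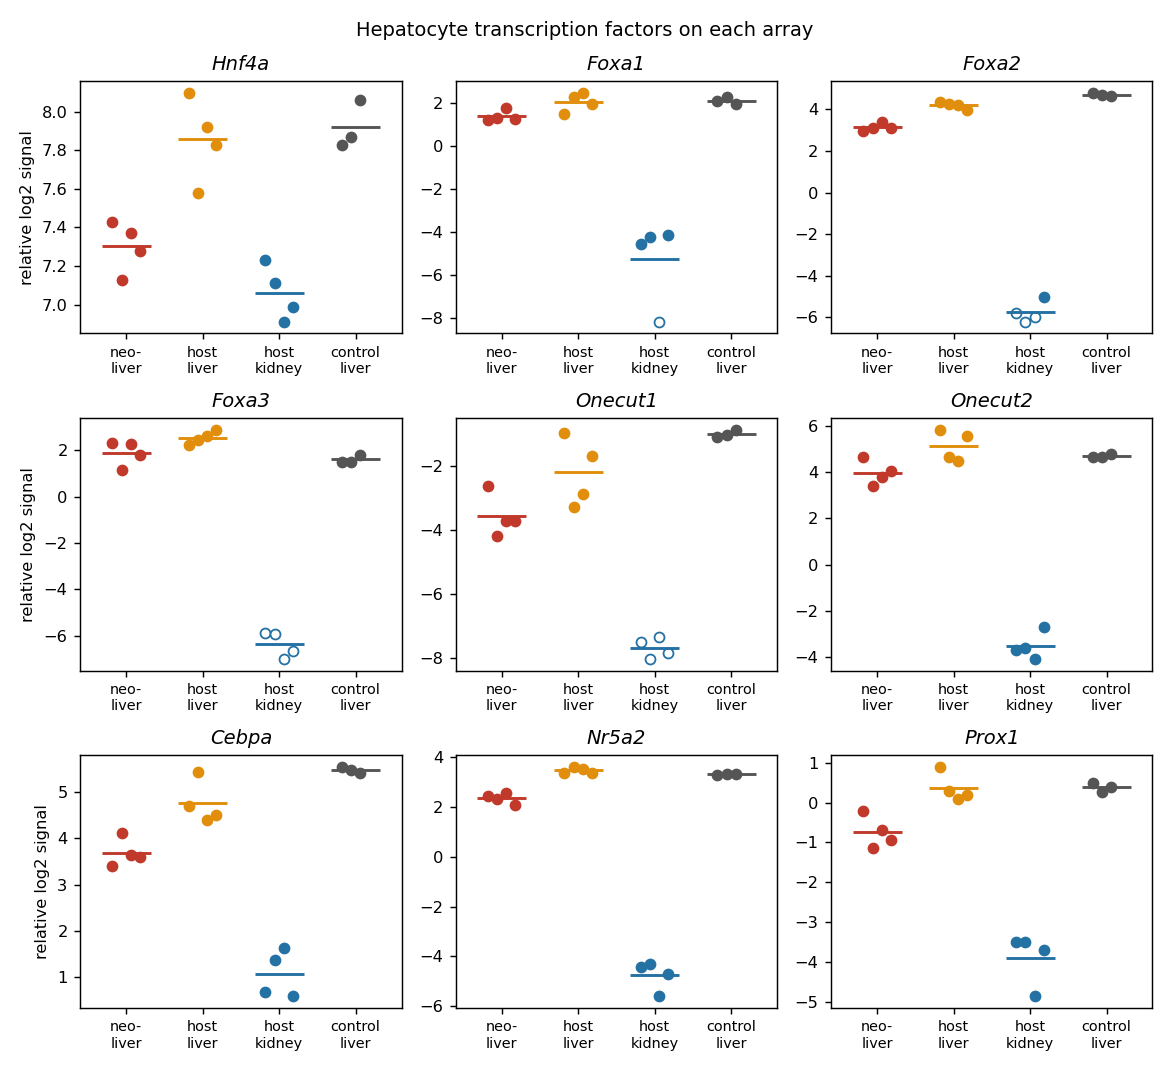
Relative log2 signal (vertical axis, a separate scale for each gene) of the 9 factors on each of the 15 arrays, by tissue. Points are arrays, lines are group means, and open points were not well above background: all 4 host kidney arrays for Foxa3 and Onecut1, 3 of 4 for Foxa2 and 1 of 4 for Foxa1.

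Of the nuclear receptors, Hnf4a was the member with the smallest organ difference. It read 7.43, 7.13, 7.37 and 7.28 in neo-liver and 8.10, 7.58, 7.92 and 7.83 in host liver. Host kidney gave 7.23, 7.11, 6.91 and 6.99, and control liver 7.83, 7.87 and 8.06. Neo-liver thus lay below every array of both livers and overlapped host kidney. The group means ran, from high to low, control liver (7.92 ± 0.12, SD, n = 3), host liver (7.86 ± 0.21, n = 4), neo-liver (7.30 ± 0.13, n = 4) and host kidney (7.06 ± 0.14, n = 4). The first 2 did not differ beyond their spread (-0.06 ± 0.13, limma adjusted p = 0.751), nor did the last 2 (0.24 ± 0.12, adjusted p = 0.113), although with replicate number as a random block neo-liver was called higher than host kidney (adjusted p = 0.043). With that number as a fixed block it was not (adjusted p = 0.069). Neo-liver fell by 0.62 against control liver (-0.62 ± 0.13, limma adjusted p = 0.00162) and by 0.56 against host liver (-0.56 ± 0.12, adjusted p = 0.00239). Host liver exceeded host kidney by 0.80 ± 0.12 (adjusted p = 5.24e-05). Host kidney held 55.1% of the control liver signal of Hnf4a, and the kidney share of neo-liver at the host kidney level equals 26.5% of its signal there. For the other 8 factors that contribution was at most 4.91%.

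Nr5a2, which switches on genes of bile acid synthesis, held 0.396% of its control liver signal in host kidney. Its values were 2.44, 2.32, 2.56 and 2.07 in neo-liver, 3.38, 3.61, 3.54 and 3.37 in host liver, -4.43, -4.29, -5.60 and -4.70 in host kidney and 3.29, 3.31 and 3.32 in control liver. Neo-liver overlapped with no other tissue. It was lower than control liver by 1.94-fold (-0.96 ± 0.24, limma adjusted p = 0.00505) and lower than host liver by 2.18-fold (-1.13 ± 0.22, adjusted p = 0.00123). Host liver stood highest and did not overlap with control liver, but the difference of 0.17 ± 0.24 was not called (adjusted p = 0.643). Neo-liver exceeded host kidney by 7.10 ± 0.22 and host liver by 8.23 ± 0.22 (adjusted p = 1.16e-11 and 1.35e-12), and by 5.36 and 6.39 with normexp background correction. A dimmer probe of Nr5a2 gave -1.13 ± 0.41 against control liver (adjusted p = 0.0357) and -0.96 ± 0.38 against host liver, which was not called (adjusted p = 0.0515).

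The 3 forkhead genes had different patterns. Foxa2 read 2.97, 3.09, 3.39 and 3.11 in neo-liver, 4.35, 4.25, 4.19 and 3.96 in host liver and 4.81, 4.68 and 4.63 in control liver. Its host kidney values were -5.77, -6.22, -5.97 and -5.04, with only the last of them above background. The tissues formed 4 separate steps, control liver highest, then host liver, neo-liver and host kidney. Neo-liver was 2.96-fold below control liver (-1.56 ± 0.22, limma adjusted p = 6.76e-05) and 2.06-fold below host liver (-1.04 ± 0.20, adjusted p = 0.00103). The step of host liver below control liver, -0.52 ± 0.22, was not called (adjusted p = 0.0993). It was called when host kidney was left out of the fit (adjusted p = 0.0236), in the fit of these 2 groups alone (adjusted p = 0.0371) and with normexp background correction (-0.54, adjusted p = 0.0118). A dimmer probe of Foxa2 gave -1.61 ± 0.45 against control liver (adjusted p = 0.00964) and -1.02 ± 0.42 against host liver (adjusted p = 0.0603, not called). Against host kidney, neo-liver differed by 8.89 ± 0.20 (adjusted p = 4.5e-13), a size that leans on kidney signals below background on 3 of 4 arrays and was 6.33 with normexp.

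Foxa3, which in liver helps to drive glucose and lipid genes, was the factor whose neo-liver mean lay above that of control liver. Neo-liver gave 2.33, 1.16, 2.30 and 1.80, host liver 2.24, 2.45, 2.62 and 2.90 and control liver 1.51, 1.51 and 1.82. Neo-liver spanned the control range, with array 2 below it, and the difference was 0.29 ± 0.31 (limma adjusted p = 0.471). Host liver lay above all control livers by 0.94 ± 0.31, 1.91-fold (adjusted p = 0.0449). That call lay at the threshold. It was lost with slide as a random block (adjusted p = 0.0574), with replicate number as a random block (adjusted p = 0.0823), without a filter on dim probes (adjusted p = 0.0608) and with plasma protein centring (0.75, adjusted p = 0.162). It was also lost without host liver array 2, 3 or 4 or any of the 3 control livers, with adjusted p between 0.0568 and 0.131. Neo-liver against host liver gave -0.65 ± 0.29 (adjusted p = 0.0803), and was called with median centring (-0.85, adjusted p = 0.0241). On all 4 host kidney arrays, at -5.88, -5.92, -7.01 and -6.68, Foxa3 was not well above background, so its level there is a bound. Neo-liver was at least 195-fold higher than host kidney (adjusted p = 3.54e-11) and host liver at least 306-fold higher (adjusted p = 8.17e-12). These bounds set each group's mean against the lowest signal well above background on each host kidney array, or the probe's own signal where that was higher. With normexp the fitted log2 differences from host kidney were 5.34 for neo-liver and 5.89 for host liver, against 8.27 and 8.92 without it, so the bounds hold for the scanner-processed signals only.

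Foxa1 read 1.23, 1.32, 1.79 and 1.27 in neo-liver, 1.51, 2.28, 2.49 and 1.94 in host liver and 2.09, 2.27 and 1.94 in control liver. Host kidney gave -4.54, -4.22, -8.19 and -4.12, and array 3 of these was not above background. Neo-liver lay below every control liver and overlapped host liver. In the fit over all 15 arrays the differences, -0.70 ± 0.74 against control liver and -0.65 ± 0.68 against host liver, were not called (limma adjusted p = 0.454 and 0.451). The spread of Foxa1 in that fit comes mostly from host kidney array 3. With that array left out of the shared spread, the standard errors fell to 0.22 and 0.20 and both differences were called (adjusted p = 0.0202 and 0.0201). They were also called on the 11 liver and neo-liver arrays alone (adjusted p = 0.0309 and 0.0311). These 2 fits were chosen after the values were seen. In the fit of neo-liver and control liver alone the standard error was 0.17 and the difference was called (adjusted p = 0.0132), and in that of neo-liver and host liver alone it was not (adjusted p = 0.0606). Neo-liver exceeded host kidney by 6.67 ± 0.68 (adjusted p = 2.99e-06), and by 4.60 with normexp.

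The ONECUT genes varied widely among host livers. Onecut1 read -2.61, -4.19, -3.73 and -3.71 in neo-liver, -0.95, -3.28, -2.86 and -1.68 in host liver and -1.09, -1.01 and -0.85 in control liver. It was not well above background on any host kidney array. Neo-liver lay below every control liver and overlapped host liver, where arrays 1 and 4 were high and arrays 2 and 3 low. The fall against control liver, 5.96-fold (-2.58 ± 0.48, limma adjusted p = 0.000632), was the largest among the 9 factors, and host liver lay between (-1.21 ± 0.48 against control liver, adjusted p = 0.082, not called). Without host liver array 1, host liver was called lower than control liver (-1.63, adjusted p = 0.0135). Against host liver, neo-liver was lower by 1.36 ± 0.44 (-1.36, adjusted p = 0.0222). That call was lost without neo-liver array 2 (-1.15, adjusted p = 0.0651), host liver array 1 (-0.95, adjusted p = 0.0602) or host liver array 4 (-1.19, adjusted p = 0.0609), and in the fit of the 2 groups alone (adjusted p = 0.0837). Neo-liver was at least 4.51-fold and host liver at least 11.6-fold higher than host kidney (adjusted p = 4.66e-06 and 9.29e-08). With normexp background correction the fitted difference of neo-liver from host kidney was 1.24 in place of 4.14, still called (adjusted p = 0.000908). These bounds too hold for the scanner-processed signals only.

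Onecut2 gave 4.69, 3.42, 3.80 and 4.05 in neo-liver, 5.86, 4.66, 4.48 and 5.59 in host liver, -3.71, -3.64, -4.11 and -2.71 in host kidney and 4.66, 4.69 and 4.78 in control liver. Host liver arrays 1 and 4 stood about 1 unit above control liver and arrays 2 and 3 close to it. Neo-liver lay below all control livers apart from array 1. The difference from control liver, -0.72 ± 0.39, was not called (limma adjusted p = 0.136), whereas that from host liver was (-1.16 ± 0.36, adjusted p = 0.0171). The call against host liver was lost without neo-liver array 2 (-0.97, adjusted p = 0.0529) or host liver array 1 (-0.92, adjusted p = 0.0508). Host liver and control liver did not differ beyond their spread (0.44 ± 0.39, adjusted p = 0.437). Neo-liver exceeded host kidney by 7.53 ± 0.36 (adjusted p = 9.14e-10), and by 6.43 with normexp. Bile duct cells also make the ONECUT factors, FOXA1 and FOXA2. The 11 bile duct markers summed to 11.2 to 26.3 in neo-liver, 2.80 to 3.23 in host liver, 49.2 to 63.3 in host kidney and 2.60 to 2.94 in control liver. Against control liver 7 of the 11 rose in neo-liver and 0 fell, beside 20.4% and 29.7% of all genes called higher and lower. Against host liver 6 rose and 1 fell, beside 17.1% and 31%. The 1 that fell was Sox9 (-1.03 ± 0.36, limma adjusted p = 0.0317). Kidney also makes most of these markers: 9 were lower in neo-liver than in host kidney and 1 higher, beside 29.4% and 23.2% of all genes. The part of bile duct cells in the values of these 4 factors was not tested.

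Cebpa read 3.40, 4.12, 3.63 and 3.59 in neo-liver, 4.70, 5.44, 4.39 and 4.51 in host liver, 0.67, 1.37, 1.62 and 0.58 in host kidney and 5.55, 5.49 and 5.42 in control liver. Neo-liver overlapped with no other tissue. It was lower than control liver by 3.49-fold (-1.81 ± 0.29, limma adjusted p = 0.00019) and lower than host liver by 2.11-fold (-1.08 ± 0.27, adjusted p = 0.00497). Array 2 was the highest in neo-liver and in host liver, and it reached the control level in host liver only. Host liver as a group was lower than control liver by 0.73 ± 0.29 (-0.73), which was not called (adjusted p = 0.082). Without host liver array 2 it was (-0.95, adjusted p = 0.0192). Neo-liver exceeded host kidney by 2.62 ± 0.27 (adjusted p = 2.75e-06), and host kidney held 4.87% of the control liver signal. Myeloid cells make CEBPA as well. The 9 myeloid markers measured summed to 108 to 262 in neo-liver, 135 to 254 in host liver, 55.1 to 93.4 in host kidney and 103 to 151 in control liver. In neo-liver 4 of them rose and 0 fell against control liver, beside 20.4% and 29.7% of all genes called higher and lower. Against host liver 1 rose and 1 fell. The part of myeloid cells in the Cebpa level was not tested.

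Prox1 gave -0.21, -1.13, -0.69 and -0.94 in neo-liver, 0.90, 0.30, 0.08 and 0.18 in host liver, -3.50, -3.50, -4.86 and -3.69 in host kidney and 0.50, 0.26 and 0.39 in control liver. Neo-liver lay below every array of both livers, and the livers overlapped (-0.02 ± 0.32, limma adjusted p = 0.976). The fall was 2.17-fold against control liver (-1.12 ± 0.32, adjusted p = 0.0104) and 2.15-fold against host liver (-1.10 ± 0.30, adjusted p = 0.00807). Against host kidney neo-liver was higher by 3.15 ± 0.30 (adjusted p = 1.26e-06), and by 2.17 with normexp. Of 5 lymphatic endothelium markers measured, 2 rose in neo-liver against control liver and 0 fell, beside 20.4% and 29.7% of all genes. Podoplanin (Pdpn), also made by podocytes of the kidney, changed by 3.84 ± 0.28 and Lyve1, also a marker of liver sinusoids, by 1.98 ± 0.47 (adjusted p = 1.72e-07 and 0.0034). Against host liver 2 rose and 1 fell, beside 17.1% and 31% of all genes. The 1 that fell was Flt4 (-0.66 ± 0.19, limma adjusted p = 0.0115). The 5 markers summed to 1.82 to 2.60 in neo-liver, 0.901 to 1.21 in host liver, 2.18 to 2.59 in host kidney and 0.639 to 0.900 in control liver, and their part in the Prox1 level was not tested.

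The size of the neo-liver differences depended on the scale. When the kidney share was subtracted from each neo-liver array and the remainder rescaled to a whole, an alternative chosen after the values were seen, 4 factors were still lower than in control liver. Onecut1 differed by -2.07, Cebpa by -1.34, Foxa2 by -1.03 and Hnf4a by -0.55 (limma adjusted p between 0.0058 and 0.00907 for Cebpa, Foxa2 and Hnf4a, and 0.00398 for Onecut1). Nr5a2 (-0.42, adjusted p = 0.208) and Prox1 (-0.64, adjusted p = 0.111) were no longer called, and Foxa3 was now higher (0.82, adjusted p = 0.027). Against host liver Hnf4a alone was called (-0.48, adjusted p = 0.0136), and the other 8 lay between -0.86 and -0.11. With rescaling Hnf4a was called higher in neo-liver than in host kidney (0.31, adjusted p = 0.0468). Subtraction without rescaling left Hnf4a at -1.09 against control liver and -1.02 against host liver, and turned its difference from host kidney to -0.23 (adjusted p = 0.318).

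Centring each liver and neo-liver array on its plasma protein genes compares a factor with the hepatocyte's main secreted products. That scaling moved the median of all genes by 0.69 for neo-liver against control liver and by 0.88 against host liver. The shares of all genes called on it are not given for these comparisons. Counts of calls on that scale, here and below, therefore have no background. Onecut1 (-1.89, limma adjusted p = 0.00345), Cebpa (-1.12, adjusted p = 0.015) and Foxa2 (-0.87, adjusted p = 0.0128) were still lower than in control liver, Foxa3 was higher (0.98, adjusted p = 0.0259), Nr5a2 and Prox1 were no longer called, and Hnf4a turned to 0.07 (adjusted p = 0.804). Against host liver 0 of the 9 were called by limma, 0 also at an unadjusted p under 0.05, and values ran from -0.49 for Onecut1 to 0.32 for Hnf4a. Quantile normalization kept Onecut1, Cebpa, Foxa2, Nr5a2 and Prox1 lower against control liver but brought Hnf4a to -0.04 (adjusted p = 0.824). It also left 4 of 9 called against host liver, with Hnf4a at 0.08, and turned Hnf4a against host kidney to -0.09 for neo-liver and -0.17 for host liver. Onecut1, Cebpa and Foxa2 were called lower in neo-liver than in control liver under each of the 23 alternatives run for that comparison, within -2.89 to -1.63, -1.95 to -1.12 and -1.65 to -0.87.

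**Figure D3:**
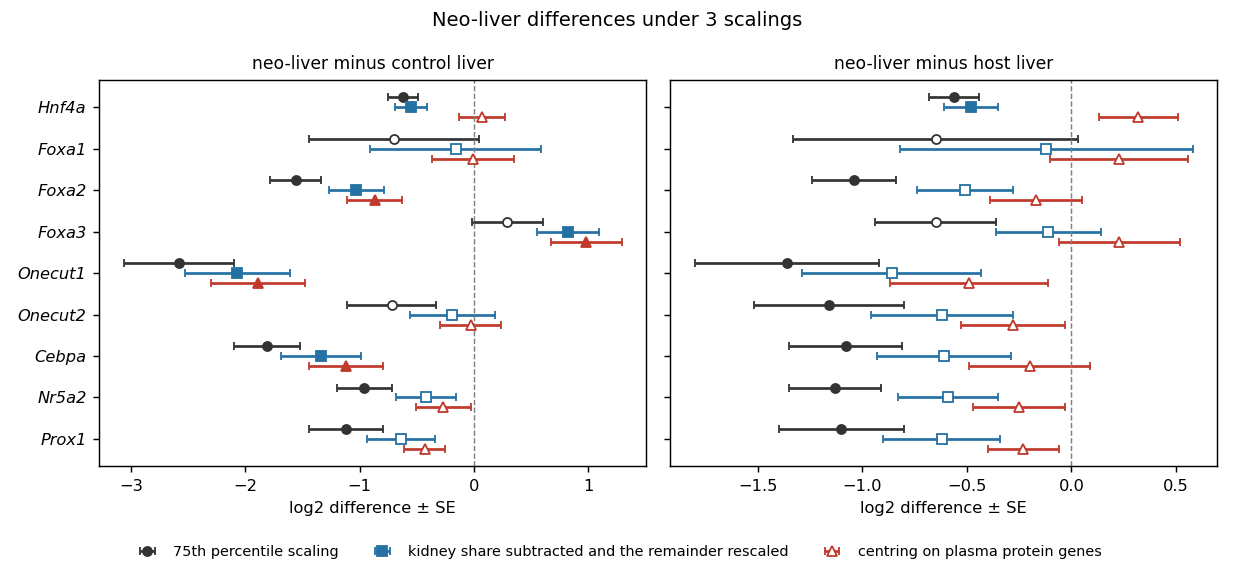
Log2 difference ± standard error (horizontal axis) of each factor (rows) for neo-liver minus control liver and neo-liver minus host liver under 3 scalings: 75th percentile, kidney share subtracted with the remainder rescaled, and centring on plasma protein genes. Filled symbols were called: 6, 5 and 4 of 9 against control liver and 7, 1 and 0 of 9 against host liver, and Foxa3 is the factor called higher, under the last 2 scalings.

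The replicate numbers tied the host tissues together, as arrays of the same number deviated together across genes in every pair of host tissues. Within numbers 1 to 4, neo-liver minus host liver was -1.66, -0.91, -0.86 and -2.03 for Onecut1, -1.17, -1.24, -0.69 and -1.54 for Onecut2, -1.31, -1.33, -0.76 and -0.92 for Cebpa and -1.37, -1.15, -0.80 and -0.85 for Foxa2. For 8 of the 9 factors neo-liver was the lower one in 4 of 4 numbers. The share of all genes with that pattern was not counted. Over all genes the median of neo-liver minus host liver was -0.21, and 31% were called lower. Foxa3 differed, with 0.08, -1.28, -0.31 and -1.09. Number 1 held the highest Onecut1 and Onecut2 of both neo-liver and host liver, and number 2 the lowest Onecut1 and the highest Cebpa of both. Neo-liver array 2, with the largest kidney share, had the lowest value of the group for Hnf4a, Foxa3, Onecut1, Onecut2 and Prox1, but the highest for Cebpa.

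**Figure D4:**
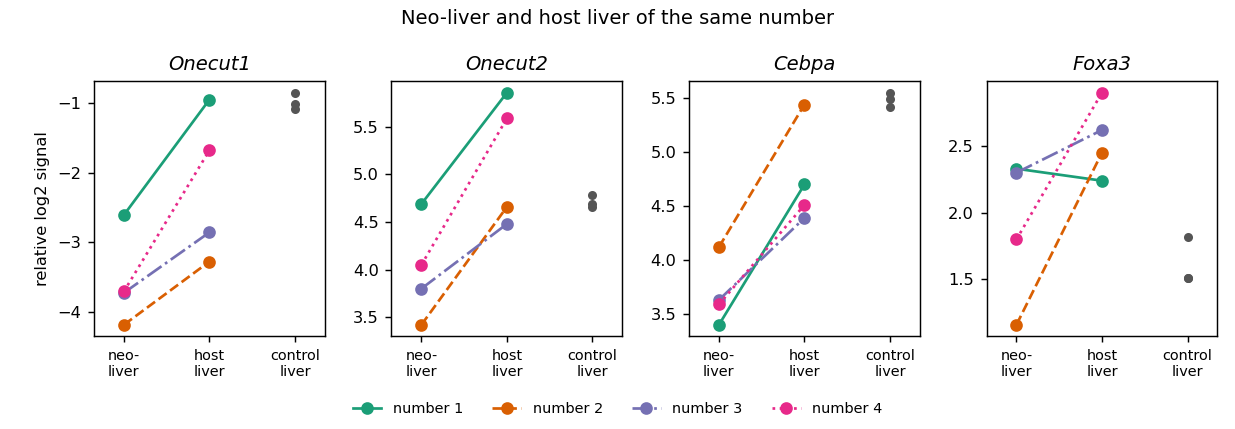
Relative log2 signal (vertical axis, a separate scale for each gene) of Onecut1, Onecut2, Cebpa and Foxa3 in neo-liver and host liver, with lines joining arrays of the same replicate number, beside the 3 control livers (grey points). All lines slope up from neo-liver to host liver except number 1 for Foxa3, where neo-liver is at 2.33 and host liver at 2.24.

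Other transcription factors of liver were measured beside these 9. Of 31 that could be tested, 13 were lower in neo-liver than in control liver, 2 higher and 16 not called, beside 29.7% and 20.4% of all genes called lower and higher. The median difference was -0.58. With plasma protein centring 2 were lower and 4 higher, while the median of all genes moved from -0.15 to 0.54. The xenobiotic receptor genes Nr1i2 (PXR) and Nr1i3 (CAR) changed by -1.50 ± 0.27 and -1.40 ± 0.37, and Klf15, for a regulator of amino acid breakdown during fasting, by -1.58 ± 0.15 (limma adjusted p = 0.000425, 0.00704 and 2.13e-06). The repressor gene Bcl6 rose by 0.98 ± 0.20 (adjusted p = 0.00114). Against host liver 13 were lower and 0 higher (15 and 0 at an unadjusted p under 0.05), beside 31% and 17.1% of all genes. With plasma protein centring 0 were lower and 4 higher, while the median of all genes moved from -0.21 to 0.67. For both comparisons the shares of all genes called on that scale are not given. The largest falls were those of Rxra, the partner of many nuclear receptors (-1.31 ± 0.31, adjusted p = 0.00411), Nr1i2 (-1.27 ± 0.25, adjusted p = 0.00103) and Nr1i3 (-1.25 ± 0.34, adjusted p = 0.00937). Host liver differed from control liver in 3 of the 31, where 24.5% of all genes were called: Bcl6 (1.29 ± 0.20) and Xbp1, a factor of the secretory pathway (0.95 ± 0.14), rose and Klf15 fell (-1.15 ± 0.15), with adjusted p of 0.000692, 0.000474 and 0.000278. Against host kidney, neo-liver was higher in 19 and lower in 2 of the 31, beside 23.2% and 29.4% of all genes. These 31 were also chosen as factors of liver, which favours that direction. Creb3l3, a fasting factor of liver, rose by 7.18 ± 0.74 and Hhex, an early liver homeobox gene, by 4.81 ± 0.19, while Nr2f2 was lower by 0.80 ± 0.16 (-0.80), with adjusted p of 3.1e-06, 9.23e-11 and 0.000861.

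**Figure D5:**
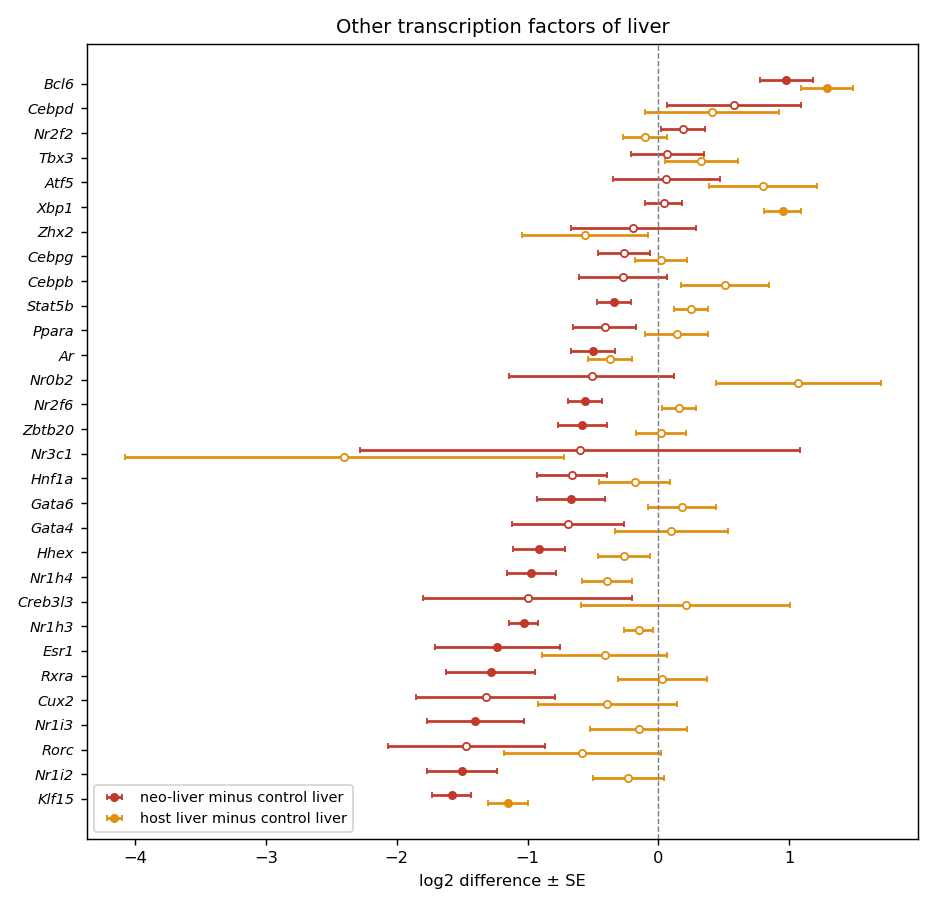
Log2 difference ± standard error (horizontal axis) of 30 other liver transcription factors (rows) for neo-liver minus control liver and host liver minus control liver, ordered by the neo-liver difference. Filled points were called: 1 higher and 13 lower for neo-liver, and 2 higher and 1 lower for host liver.

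Genes known as targets of the factors were counted in lists taken from general knowledge, which overlap. Of 14 HNF4A targets 9 were lower in neo-liver than in control liver and 0 higher, a median of -0.97. Cyp7a1, whose enzyme starts the making of bile acids from cholesterol, changed by -2.60 ± 0.68, the urea cycle gene Otc by -1.93 ± 0.40 and the coagulation factor gene F7 by -1.59 ± 0.12 (limma adjusted p = 0.00643, 0.00138 and 2.7e-07). Of 11 CEBPA targets 7 were lower and 0 higher, a median of -1.70. The urea cycle genes Cps1 and Arg1 changed by -3.23 ± 0.40 and -2.62 ± 0.25 and the tyrosine aminotransferase gene Tat by -2.73 ± 0.47 (adjusted p = 2.43e-05, 1.9e-06 and 0.000326). Of 8 FOXA targets 5 were lower, with Tdo2 of tryptophan breakdown at -3.06 ± 0.65 (adjusted p = 0.00166), and 1 was higher, Igfbp1, a fasting and stress gene, by 4.32 ± 1.21 (adjusted p = 0.00933). Of 8 NR5A2 targets 5 were lower and 0 higher, with Abcg8, for a sterol transporter, at -1.12 ± 0.42 (adjusted p = 0.0394). Of 7 ONECUT targets, among them Foxa2 and Hnf4a, 4 were lower and 1 higher. The background in this comparison is the 29.7% called lower given above. At an unadjusted p under 0.05, 0 of the HNF4A, CEBPA and NR5A2 targets were higher. With plasma protein centring the counts lower were 4 of 14 for HNF4A, 5 of 11 for CEBPA, 3 of 8 for FOXA, 2 of 8 for NR5A2 and 2 of 7 for ONECUT, while 2 FOXA, 1 NR5A2 and 1 ONECUT target were called higher. The median of all genes was 0.54 on that scale. Each target list shares genes with the plasma protein list, such as Ttr, Alb, Apoc3 and Apoa1. Centring makes the median of the plasma protein list equal on all arrays by construction. These shared genes therefore help to set the scale on which they are counted.

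The same lists were counted in host liver against control liver, where 11.2% of all genes were called lower and 13.3% higher. Of 14 HNF4A targets 1 was lower than in control liver and 0 higher: Cyp7a1, at -2.83 ± 0.68 (limma adjusted p = 0.00975). Of 11 CEBPA targets 2 were lower, Cps1 at -1.59 ± 0.40 and Arg1 at -1.02 ± 0.25 (adjusted p = 0.0126 and 0.00962). Of 8 NR5A2 targets 2 were lower, Cyp7a1 among them, and 1 was higher, Apoa1, which encodes the chief HDL apolipoprotein (1.42 ± 0.46, adjusted p = 0.0391). Between neo-liver and host liver, 8 of 14 HNF4A targets, 5 of 11 CEBPA targets, 4 of 8 FOXA targets, 3 of 8 NR5A2 targets and 3 of 7 ONECUT targets were lower and 0 higher, with 0 higher at an unadjusted p under 0.05 too. Over all genes 31% were called lower there. The NR5A2, ONECUT, CEBPA and FOXA lists are short, and their counts cannot be set apart from that background. No list was tested against it. With replicate number as a fixed or a random block 8 of the 11 CEBPA targets were lower. The share of all genes called lower in those fits is not given here, so that count cannot be weighed against a background. F7 was lower by 1.69 ± 0.11 (-1.69, adjusted p = 7.86e-08), Tat by 1.78 ± 0.43 (-1.78, adjusted p = 0.0045) and Abcg5, for a sterol transporter, by 1.14 ± 0.33 (-1.14, adjusted p = 0.0123). With plasma protein centring 1 of the HNF4A and 1 of the CEBPA targets were lower than in host liver and 0 of the other lists, while 1 FOXA, 1 NR5A2 and 2 ONECUT targets were higher. The median of all genes was 0.67 on that scale, and the genes shared with the plasma protein list limit these counts too. The transthyretin gene Ttr, held by the HNF4A, FOXA and ONECUT lists, differed by -1.14 ± 0.29 for neo-liver against control liver (adjusted p = 0.00525) and by 11.42 ± 0.27 for neo-liver against host kidney (adjusted p = 5.8e-13).

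Genes whose pattern over the 15 arrays lay nearest to each factor were found by the root mean square difference of their centred log2 values. For Hnf4a these were Abce1 and Ganab (0.11 each). Cebpa lay nearest to Acat3 (0.18) and Acat2 (0.26), Prox1 to Fxyd1 (0.27) and Ebpl (0.30), and Onecut2 to Tm4sf4 (0.28) and Cfi (0.29). Nr5a2 lay nearest to Stab2 (0.36) and Mbl2 (0.38), and Foxa2 to Asgr1 (0.39) and F7 (0.40). The less close matches were Cd5l (0.45) and Fgb (0.49) for Foxa3, Angptl8 (0.53) and Sult2a8 (0.59) for Onecut1, and Proz (0.66) and Klb (0.71) for Foxa1. Among the members themselves the closest pair was Onecut2 with Nr5a2 (0.55), followed by Foxa3 with Nr5a2 (0.59). Onecut1 and Onecut2 differed by 1.48 and Foxa1 and Foxa2 by 1.47 on the same measure. The most distant pair was Hnf4a with Foxa2 (4.04). All 15 arrays enter each of these values, so the liver and kidney contrast dominates them.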

How the data were processed

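Total RNA of 15 samples was hybridised to single-colour Agilent mouse arrays of 62976 spots, 1 array per sample. Processed signal intensity, already background-subtracted and detrended by the scanner software, was deposited for each array (Agilent Feature Extraction 10.10.1.1, per the submitters' processing notes and the file headers). The deposited flags for probes well above background, saturation and outliers come from the same software. The authors' deposited log2 table held the same values minus a constant per array (within 0.01 for 99.78% of probes or more). How it was centred is not stated in any source at hand, and it served as an alternative. What follows was computed here: control and outlier spots were left out, spots of a probe averaged, log2 taken and each array's 75th percentile subtracted. Probes were named through RefSeq accessions. A gene was kept if well above background on every array of at least 1 group and represented by its brightest probe. limma 3.58.1 (lmFit, eBayes, R 4.3.3, statmod 1.5.0) fitted a mean per group over 15 arrays. On simulated data with independent arrays, the script recovered known differences near their true size. Correlation between arrays of 1 replicate number was not simulated.

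The members and lists were chosen with earlier results of these data known. All 9 members are named. Of each other list, up to 3 called genes with the largest non-overlapping difference in the list's main direction and up to 2 in the other are eligible, with the 2 nearest genes of each member. The plasma protein list also holds the enzyme gene Amdhd1. The values of 2 list genes are not reported here, although the counts include them. Onecut3 and Cyp19a1 were too dim to test, and no probe was matched to Ccl21a, Cd68 and Ly6c2 through a RefSeq accession. Arrays of 1 replicate number correlated in their residuals across genes in all 12 pairs of host tissues (r between 0.176 and 0.576, best with the same number in 12 of 12), so numbers were taken as mice. Control livers were not paired. The labels do not say whether tissue was pooled, and p-values measure the spread between these samples. Precision is limited by the number of arrays. Alternatives were quantile, median and plasma protein scaling, normexp correction (offset 50, on the deposited median spot and background intensities), the deposited log2 table, filters, probe choice, samples in the fit, slide and replicate blocks, kidney subtraction, and each array left out.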

Additional observations from a re-analysis of the deposited data

Results flagged for a closer look

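In groups of 4, 27 sets of values were examined for an array far from the other 3, and chance marks about 1 in 20 such sets. Foxa1 stood at 1.79 on neo-liver array 3, against 1.23 to 1.32 on the other 3 neo-liver arrays. On host kidney array 3 Foxa1 stood at -8.19, not above background, against -4.54 to -4.12 on the other 3. Prox1 stood at -4.86 on the same host kidney array, against -3.69 to -3.50.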

How the results depend on the processing

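Over 999 values of the 9 factors under alternatives, 925 kept their direction and their side of the threshold. The number of factors called for neo-liver against host liver, 7 as reported, was 4 with quantile normalization, 0 with plasma protein centring and 1 with the kidney share subtracted and the remainder rescaled. That for host liver against control liver, 1 as reported, was 0 with plasma protein centring, without a filter on dim probes, with slide as a random block and with the random replicate block, and 2 with normexp, in the fit of the 2 groups alone and on liver and neo-liver arrays alone. Leaving out 1 array at a time gave 0 to 2. All genes called in that comparison, 3833 as reported, numbered 1617 with plasma protein centring, 2478 in the fit of the 2 groups alone and 2263 to 4144 with 1 array left out. Without control liver array 1, 2 or 3 they numbered 2263, 2282 and 2431. Values that turned sign were those of Hnf4a with quantile normalization (0.08 for neo-liver against host liver, -0.09 for neo-liver and -0.17 for host liver against host kidney), with plasma protein centring (0.07 against control liver and 0.32 against host liver) and with the kidney share subtracted (-0.23 against host kidney). With plasma protein centring Foxa1 and Foxa3 turned to 0.23 each for neo-liver against host liver, and Nr5a2 to -0.02 for host liver against control liver. The other turns were differences near 0 between host liver and control liver: with median centring 0.08 for Hnf4a, 0.10 for Foxa1 and 0.13 for Prox1, with normexp 0.01 for Prox1, with the other probe -0.17 for Nr5a2, and with 1 array left out -0.14 to 0.03 for Hnf4a, -0.19 to 0.14 for Foxa1 and -0.20 to 0.08 for Prox1. Subtraction of the kidney share and plasma protein centring alter the scale of neo-liver by construction, and for the other settings the cause was not tested. With the random replicate block Hnf4a was called for neo-liver against host kidney (0.24, limma adjusted p = 0.043; with the fixed one it was not, adjusted p = 0.069) and Foxa3 was not for host liver against control liver (0.94, adjusted p = 0.0823), while no other call among the factors changed. No fixed replicate block was possible for comparisons with control liver, whose numbers are not those of the hosts. Relative to the 75th percentile, quantile normalization moved the median of all genes by 0.13 and 0.14 for neo-liver against control liver and host liver, and median centring moved that against host liver by -0.20. Signal over background limits Foxa3, Onecut1 and Foxa2 in host kidney, where most or all arrays gave bounds.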
